A study of Canis lupus familiaris with 8 samples.

Results

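Among the CD8A- TCRαβ T cells of canine blood, a set of 438 cells was chosen in which transcripts of both GPR25 and LGALS3 were detected and none of GATA3 or FOXP3. They were taken from 24757 cells without a CD8A count, out of 31909 cells kept in 4 dogs. A cell belonged to the set with at least 1 unique molecular identifier (UMI, a count of 1 captured transcript) of GPR25 and of LGALS3 and 0 UMIs of CD8A, GATA3 and FOXP3. The cells are called GPR25+ LGALS3+ cells here, and the 24319 remaining cells without CD8A are called other CD8A- cells.

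TCRαβ+ T cells had been sorted from the blood of healthy Beagles, frozen, thawed together and sequenced by droplet-based 5' gene expression and V(D)J sequencing. The animals had received routine vaccinations, no treatment is given in the labels, and they comprised 1 female (dog 1, aged 5 years) and 3 males (dogs 2 and 3, aged 7 years, and dog 4, aged 9 years), and each gave 1 gene expression and 1 V(D)J library. The dog is the replicate throughout (n = 4), and age and sex were not tested because nearly every combination occurred in 1 dog. The set was defined by transcripts and not by surface protein, so a cell with an uncaptured transcript could fall on either side of the rule.

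GPR25 is an orphan G protein-coupled receptor that belongs to the same family as GPR15, a homing receptor of gut T cells. LGALS3 encodes galectin-3, a lectin that binds β-galactosides on glycoproteins and is abundant in myeloid cells and in some activated T cells. GATA3 is the master transcription factor of Th2 cells and FOXP3 that of regulatory T cells, so the rule left out cells in which either could be seen. KLRG1, an inhibitory lectin receptor of antigen-experienced T and NK cells, and CXCL10, an interferon-induced chemokine for CXCR3-bearing cells, were the other genes proposed as markers of these cells.

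The 4 gene expression libraries held 26904346, 35661623, 32637367 and 32773374 UMIs for dogs 1 to 4. Filters on UMIs and mitochondrial share left 7096, 8454, 8109 and 8250 cells, whose median depth was 3599, 3931.5, 3795 and 3847 UMIs. Between 87 and 120 barcodes were shared by any pair of libraries, at most 1.43% of the smaller one. GPR25+ LGALS3+ cells had a median of 3914 UMIs, against 3766 in other CD8A- cells, 4709 in GATA3+ LGALS3+ cells and 4539 in FOXP3+ cells, so these last sets were deeper. The median mitochondrial share of the set was 1.81%, 1.87%, 1.83% and 1.22% in dogs 1 to 4, below that of other CD8A- cells in each dog (2.20%, 2.18%, 2.41% and 1.54%), and its part in the comparisons was not tested. The cells of the set held 324797, 402023, 346346 and 726669 UMIs in dogs 1 to 4, so dog 4 gave the deepest sum and dog 1 the shallowest.

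The set made up 1.12% of the CD8A- cells in dog 1 (71 cells, exact 95% interval 0.879 to 1.42), 1.48% in dog 2 (101 cells, 1.21 to 1.80), 1.45% in dog 3 (81 cells, 1.16 to 1.80) and 3.06% in dog 4 (185 cells, 2.64 to 3.52). Intervals cover counting error only. The interval of dog 4 lay above those of the other dogs, whose intervals overlapped, and the mean was 1.78% ± 0.868 (SD, n = 4). Thinning to 2000 UMIs left out 1020, 1329, 1110 and 1290 of all cells kept in dogs 1 to 4, which were shallower. In the CD8A- cells that remained the shares were 1.23%, 1.54%, 1.60% and 3.54% before thinning and 0.826%, 1.10%, 1.18% and 2.69% after it, with dog 1 lowest and dog 4 highest in both. Without dog 4 the mean was 1.35% ± 0.199 (SD, n = 3).

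**Figure D1:**
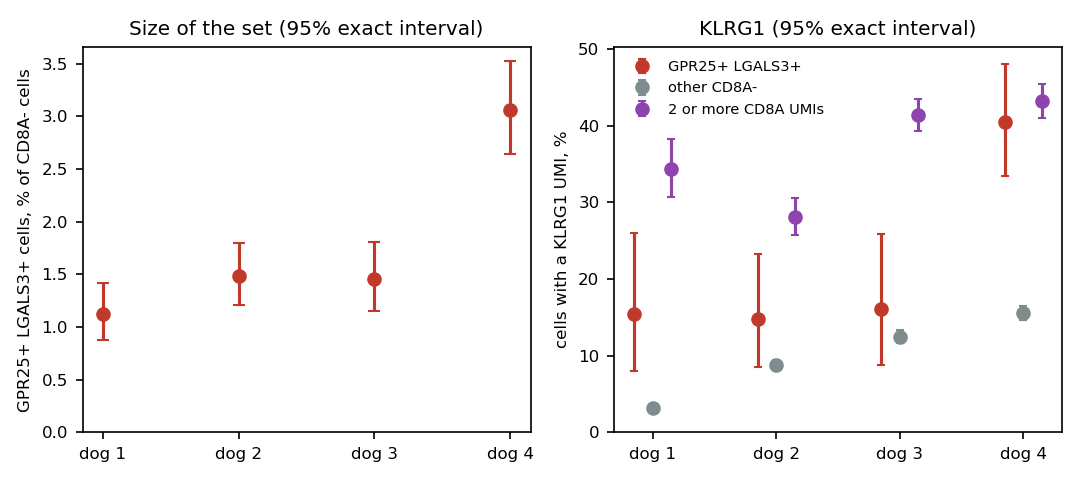
Left, GPR25+ LGALS3+ cells as a percent of CD8A- cells in each dog, and right, percent of cells with a KLRG1 UMI in GPR25+ LGALS3+ cells, other CD8A- cells and cells with 2 or more CD8A UMIs (points, share per dog; bars, exact 95% intervals). Dog 4 has the largest set (3.06%) and the largest KLRG1 share within it (40.5%).

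Many cells sat at the edge of the rule. Exactly 1 GPR25 UMI was present in 129 of the 438 cells (29.5%) and 5 or more in 115 (26.3%). For LGALS3, 229 cells (52.3%) had exactly 1 UMI, and 69 cells (15.8%) had a single UMI of each gene. Free RNA in a droplet can give such UMIs, and its part in the set was not tested. For comparison, cells with 2 or more CD8A UMIs, whose median depth was 3922 UMIs, had a GPR25 UMI in 4.45%, 9.55%, 4.54% and 6.62% and an LGALS3 UMI in 12.1%, 17.6%, 11.8% and 8.60% in dogs 1 to 4. Just outside the rule lay 249 GPR25+ LGALS3+ cells with exactly 1 GATA3 UMI, 154 with 2 or more, 76 with FOXP3, and 60 with CD8A and neither factor. The cells with CD8A differed from the set in CD4, of which 11.7% had a UMI.

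The levels of the selecting genes are given as a description, since they chose the cells. GPR25 stood at 631, 933, 924 and 813 CPM (UMIs of the gene per 1000000 UMIs of the summed cells) in the cells of dogs 1 to 4, with a mean of 825 ± 140 CPM (SD, n = 4). Its mean was 72.3 ± 23.8 CPM in other CD8A- cells, 113 ± 58.3 CPM in GATA3+ LGALS3+ cells, 76.3 ± 14.8 CPM in FOXP3+ cells and 38.0 ± 11.7 CPM in cells with 2 or more CD8A UMIs. LGALS3 stood at 388, 465, 419 and 490 CPM, with a mean of 440 ± 45.8 CPM. The LGALS3 level was close to that of GATA3+ LGALS3+ cells (464 ± 33.7 CPM), which were selected on LGALS3 in the same way, and FOXP3+ cells, which were not, had 320 ± 44.5 CPM.

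The 2 selecting genes occurred together unevenly among dogs. Of CD8A- cells without GATA3 and FOXP3, LGALS3 was detected in 20.5%, 26.8%, 25.0% and 31.2% of those with GPR25 and in 9.19%, 24.7%, 21.7% and 20.7% of those without it. After thinning to 2000 UMIs per cell the shares were 15.7%, 20.7%, 20.4% and 29.1% against 8.25%, 19.8%, 18.4% and 17.4%. The shares with GPR25 were thus the higher ones in all 4 dogs, by a wide margin in dogs 1 and 4 and a narrow one in dogs 2 and 3.

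KLRG1 and CXCL10 had been proposed as markers from these same data, so their values describe the cells and cannot check the label. A KLRG1 UMI was found in 15.5%, 14.9%, 16.05% and 40.5% of GPR25+ LGALS3+ cells and in 3.12%, 8.74%, 12.5% and 15.5% of other CD8A- cells of dogs 1 to 4. KLRG1 stood at 46.2, 49.7, 52.0 and 172 CPM in the set and at 13.0, 29.7, 48.1 and 66.7 CPM in the other CD8A- cells. Only in dog 4 did the set approach the share of cells with 2 or more CD8A UMIs, 43.2% in that dog. Cells with GPR25 but without LGALS3 had KLRG1 UMIs in 3.27%, 3.99%, 4.53% and 16.4%, below the GPR25+ LGALS3+ cells in every dog. Cells with both GPR25 and LGALS3 that the rule left out had a KLRG1 UMI, pooled over dogs, in 25.3% of those with 1 GATA3 UMI, 26.6% of those with 2 or more, 23.7% of those with FOXP3 and 35.0% of those with CD8A.

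A CXCL10 UMI was seen in 0 of 71 cells of dog 1, which allows a share of cells with a UMI of up to 4.23% and sets no limit on cells that express the gene, and in 1, 1 and 13 cells of dogs 2 to 4. The shares of 0.990% and 1.23% in dogs 2 and 3 compare with 0.879% and 0.564% of other CD8A- cells, and 7.03% in dog 4 with 2.52%. In dog 4 the level was 114 CPM, against 27.9 CPM in the other CD8A- cells of that dog.

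The cells carried T cell transcripts, and CD4 was detected in about as many of them as of the other CD8A- cells. CD3E, a signalling chain of the T cell receptor complex, stood at 1267 ± 77.3 CPM, against 1261 ± 87.0 CPM in other CD8A- cells (SD, n = 4). A CD4 UMI was found in 53.5%, 57.4%, 48.1% and 55.7% of the cells and in 58.0%, 53.2%, 48.7% and 53.6% of other CD8A- cells. The means were 53.7% ± 4.03 and 53.4% ± 3.78 (SD, n = 4), with a difference of 0.336 percentage points (SD of the differences 3.74, n = 4) and an exact two-sided sign-flip permutation p of 1. The smallest p that this test allows with 4 dogs is 0.125. In cells with 2 or more CD8A UMIs, which should mostly lack CD4, the share was 8.18% ± 1.61 (SD, n = 4).

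Markers of other blood cells were looked at in the set and in other CD8A- cells. Of 13 monocyte and macrophage genes in the files, 11 were at 0 in the 438 cells, LYZ, CSF1R and CD163 among them, and these 11 apart from LYZ were at 0 in the other CD8A- cells too. S100A8 gave 6360 of the list's 6361 UMIs. The summed list stood at 3162, 3428, 3407 and 3820 CPM in dogs 1 to 4, above the 1431, 2513, 2664 and 3091 CPM in other CD8A- cells in each dog. The dendritic cell list gave 102 UMIs, 100 of them from CCR7, which T cells express too, with sums of 114, 82.1, 46.2 and 22.0 CPM. The B and plasma cell list gave 14 UMIs (7.43 ± 4.00 CPM, JCHAIN the most abundant with 4, 5 genes including PAX5 and CD22 at 0). The NK cell list gave 35 UMIs (19.0 ± 7.46 CPM), 24 of them from KLRD1, with NCR1, NCAM1, KLRF1 and CD160 at 0, and the platelet and erythroid list gave 6 UMIs (4.19 ± 7.50 CPM, ITGA2B the most abundant). A gene at 0 in all 438 cells has a level of at most 1.67 CPM by a limit of 3 UMIs.

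The first comparison asked how the rest of the transcriptome of GPR25+ LGALS3+ cells differed from that of other CD8A- cells. With the dog as a block in the fit, the cells had more ITGB1, RBP4, FGL2, CCR2, VIM, ANXA1 and ANXA2, and less CCR9, CCR7, LEF1, TCF7 and CD38. UMIs were summed per dog and set, which gave 8 sums, and the sums of a dog were compared with each other by keeping the dog as a term (a block) in edgeR's quasi-likelihood fit, with Benjamini-Hochberg adjustment over 10057 genes. The 7 genes CD8A, GPR25, LGALS3, GATA3, FOXP3, KLRG1 and CXCL10 were left out of all counts. With the block, 236 genes had an adjusted p under 0.05 (2.35% of those tested), 116 of them higher (1.15%) and 120 lower (1.19%).

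Without the block the same edgeR test called 0 genes, with 795 at an unadjusted p under 0.05 (7.9% of those tested), and DESeq2 called 33 (0.328%). The smallest adjusted p-values in this unblocked edgeR fit were 0.0901, for ITGB1, FGL2, CD38 and ANXA1 among others. Both sets of a dog came from the same animal and library. All calls against other CD8A- cells given here are from the fit with the dog as a block, which was turned to after the unblocked result was known.

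RBP4, which encodes a retinol carrier protein, had 219, 251, 185 and 380 CPM in GPR25+ LGALS3+ cells of dogs 1 to 4 and 40.0, 106, 98.6 and 145 CPM in the other CD8A- cells. The sums of the sets did not overlap, and the log2 fold change was 1.41 ± 0.0956 (SE) with an adjusted p of 7.89e-46. ITGB1, the β1 integrin chain that pairs with several α chains to bind matrix and VCAM1, had 603, 672, 494 and 859 CPM against 203, 316, 288 and 390 CPM. Again no sum of the set fell within the range of the other cells, and the log2 fold change was 1.11 ± 0.0740 (adjusted p = 1.17e-47). FGL2, a fibrinogen-like protein that T cells can secrete, had 413, 433, 419 and 512 CPM against 152, 229, 216 and 297 CPM. Its log2 fold change was 0.96 ± 0.0796 (adjusted p = 1.31e-30), without overlap. For orientation, 2.29% of all genes tested had all 4 sums of the set above those of the other CD8A- cells and 4.63% had all 4 below.

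CCR2, the receptor for CCL2 that guides cells into inflamed tissue, had 36.9, 59.7, 49.1 and 38.5 CPM against 10.8, 23.4, 26.2 and 23.8 CPM. Its log2 fold change was 1.06 ± 0.201 (adjusted p = 2.20e-05), without overlap between the sets. The remaining genes named as higher by the rule on size were FXYD2, a regulator of the sodium pump (2.45 on the log2 scale, from 18 UMIs in the set), DNAH8, an axonemal dynein chain (1.30), and ARMC9, a protein of the ciliary base (1.25). They were followed by GSDMA, a gasdermin (1.01), NEK6, a mitotic kinase (0.97), CDKN1A, the cell cycle inhibitor p21 (0.90), SEPTIN11 (0.88) and MGLL, a monoacylglycerol lipase (0.86). All 12 were higher in each of the 4 dogs. FXYD2 had 9.24, 2.49, 31.8 and 4.13 CPM against 1.28, 1.62, 0.464 and 3.66 CPM. It differed most in dog 3 and least in dog 4. The sets overlapped for FXYD2, DNAH8, GSDMA, NEK6 and SEPTIN11 and not for ARMC9, CDKN1A and MGLL.

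CCR9, the receptor for CCL25 that directs lymphocytes to the small intestine, was the gene with the largest named decrease. It had 0, 14.9, 2.89 and 5.50 CPM in GPR25+ LGALS3+ cells, from 11 UMIs in all, and 9.69, 90.6, 72.3 and 106 CPM in other CD8A- cells. It was lower in the set within every dog, but dog 1 was low in both sets, so that the sums overlapped across dogs, and 0 UMIs in dog 1 allow up to 9.24 CPM. The log2 fold change was -3.69 ± 0.279 (SE, adjusted p = 1.59e-36).

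NMB, which encodes the peptide neuromedin B, had 6.16, 2.49, 0 and 4.13 CPM against 28.5, 17.1, 19.6 and 15.2 CPM, a difference of -2.53 ± 0.445 on the log2 scale (adjusted p = 2.22e-06) and without overlap. RGS10, a GTPase activator that dampens G protein signalling, had 111, 14.9, 17.3 and 6.88 CPM against 332, 137, 112 and 39.5 CPM, a difference of -2.20 ± 0.166 on the log2 scale (adjusted p = 9.41e-37). Dog 1 was the high one in both sets for RGS10, and the sets overlapped across dogs but not within any dog. CDCA7L, a MYC partner, had 3.08, 7.46, 14.4 and 6.88 CPM against 44.9, 32.0, 28.3 and 23.1 CPM (-1.98 on the log2 scale), without overlap.

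CD38, an NAD-consuming ectoenzyme of activated and newly formed T cells, had 18.5, 7.46, 5.77 and 8.26 CPM against 25.5, 26.5, 29.9 and 32.5 CPM, a difference of -1.64 ± 0.303 on the log2 scale (adjusted p = 8.50e-06) without overlap. CTPS1, a CTP synthase that proliferating lymphocytes need, differed by -1.59 on the log2 scale. RFLNB, a filamin-binding protein (-1.96), and SNX9, a sorting nexin of endocytosis (-1.87), rested on 10 and 7 UMIs in the set. CCR9, NMB, RGS10, CDCA7L and these 4 genes, 8 in all, were each lower in all 4 dogs.

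**Figure D2:**
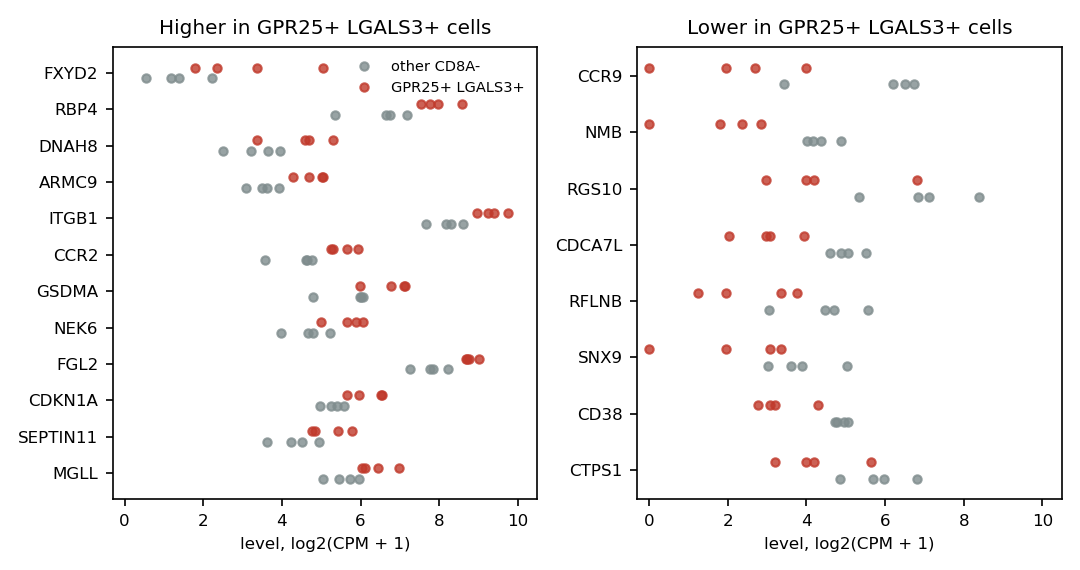
Levels on a log2(CPM + 1) axis of the 12 higher and 8 lower named genes, 1 point per dog, in GPR25+ LGALS3+ cells (red) and other CD8A- cells (grey). ITGB1, RBP4 and FGL2 lie apart from the other cells in all dogs, while CCR9 and RGS10 differ within each dog but overlap across dogs.

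By gene lists, 13 cytoskeletal, S100 and annexin genes that mark effector memory T cells were tested. With the block 8 were called higher and 0 lower, against 1.15% higher and 1.19% lower over all genes tested. The median log2 fold change of the list was 0.31, against -0.0358 over all genes tested. The 8 were VIM (0.53), ANXA1 (0.54), AHNAK (0.52), LGALS1 (0.43), CSRP1 (0.37), ANXA2 (0.35), CRIP1 (0.31) and S100A11 (0.23). VIM, the intermediate filament vimentin, stood at 4834 ± 605 CPM against 3313 ± 726 CPM, and ANXA1, a phospholipid-binding protein, at 492 ± 18.8 against 331 ± 32.3 CPM (SD, n = 4), both without overlap. LGALS1, which encodes galectin-1, was the only call among 8 galectins and partners tested. None of the 8 genes from VIM to S100A11 was called with the block against CD8A- cells with LGALS3 but without GPR25, GATA3 and FOXP3. Over all genes 0.552% were called there.

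Of 14 genes of naive and central memory cells tested, 0 were called higher and 5 lower with the block. Over all genes tested 1.15% were higher and 1.19% lower. The median log2 fold change of the list was -0.30, against -0.0358 over all genes. CCR7, the lymph node homing receptor, stood at 114, 79.6, 43.3 and 22.0 CPM against 196, 160, 177 and 96.7 CPM (-1.41 on the log2 scale). It was lowest in dog 4 in both sets and lower than in the other CD8A- cells within every dog. The transcription factors LEF1 (-1.10), SATB1 (-0.70) and TCF7 (-0.64) were lower as well, while the survival cytokine receptor IL7R stood at 909 ± 161 against 854 ± 149 CPM and was not called. None of the 5 lower genes was called with the block against LGALS3+ cells without GPR25, GATA3 and FOXP3.

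Of 13 genes linked to tissue residence, 5 were called higher and 2 lower, against 1.15% and 1.19% of all genes tested. The median log2 fold change of the list was 0.29, against -0.0358 over all genes. The higher ones were CXCR6, a chemokine receptor of resident memory cells (1.12), the transcriptional repressors PRDM1 (0.69) and ZNF683 (0.57), RBPJ, the nuclear partner of Notch (0.61), and RGS1 (0.29). The lower ones were ITGAE, the integrin chain CD103 that binds E-cadherin (-0.65), and CD69, an early activation antigen that retains cells in tissue (-0.33). Within the set RBPJ varied least of these called genes, at 99.4 ± 3.15 CPM, and it stood at 62.8 ± 9.24 CPM in other CD8A- cells. CXCR6 was higher in 3 of 4 dogs, with 18.5, 29.8, 8.66 and 37.2 CPM against 5.11, 11.02, 10.8 and 16.6 CPM. BHLHE40, a transcription factor of cytokine-producing effector and resident T cells that stands in no list, was at 320 ± 62.5 against 188 ± 46.3 CPM (0.74). Of the 5 higher and 2 lower list genes, only RGS1 was called against LGALS3+ cells without GPR25, GATA3 and FOXP3.

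Of 22 chemoattractant and homing receptors tested, CCR2 and CXCR6 were called higher, and 3 genes, CCR7 and CCR9 among them, lower. For all genes tested the shares were 1.15% higher and 1.19% lower. Of 11 integrins, ITGB1 and the leukocyte β2 chain ITGB2 (0.38) were higher and ITGAE lower. Among activation and costimulation genes, 4 of 19 were higher, namely the AP-1 genes FOS (0.29) and JUNB (0.38), the adhesion receptor CD44 (0.26) and the MHC class II gene DLA-DQA1 (0.40), and CD69 and TNFSF8 (-0.50) were lower.

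None of 12 regulatory, 7 Th17, 7 follicular helper and 11 T cell identity genes passed the blocked edgeR test, lists too short to be read against the 2.35% called over all genes. Of 9 Th2 genes IL4R was lower (-0.77), and of 12 Th1 genes CCL5 (-1.22) and the IL-12 receptor chain IL12RB2 (-1.44) were lower. Among 16 cytotoxic genes, the granule proteoglycan SRGN was higher (0.33), and CCL5, the killer receptor KLRK1 (-0.63) and the cathepsin CTSW (-1.21) were lower. CCL5 was also the only call among 10 chemokines and cytokines.

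In the last lists, 1 of 15 interferon-stimulated genes was higher (ISG20, 0.36), 1 of 9 cell cycle genes was lower (STMN1, -0.68) and 1 of 9 stress genes was lower (TXNIP, -0.49). Such lists are too short to be read against the 1.15% higher and 1.19% lower of all genes tested. Among 10 inhibitory receptors CD96 was higher (0.70). CD244 was called lower, with 1 UMI in the set, where the level in other CD8A- cells was 8.76 times that of the set (95% counting interval 1.56 to 347). S100A8, which makes up nearly the whole monocyte list, was higher (0.52 on the log2 scale), at 3453 ± 273 CPM against 2424 ± 706 CPM. The part of other cell types in these levels was not tested.

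**Figure D3:**
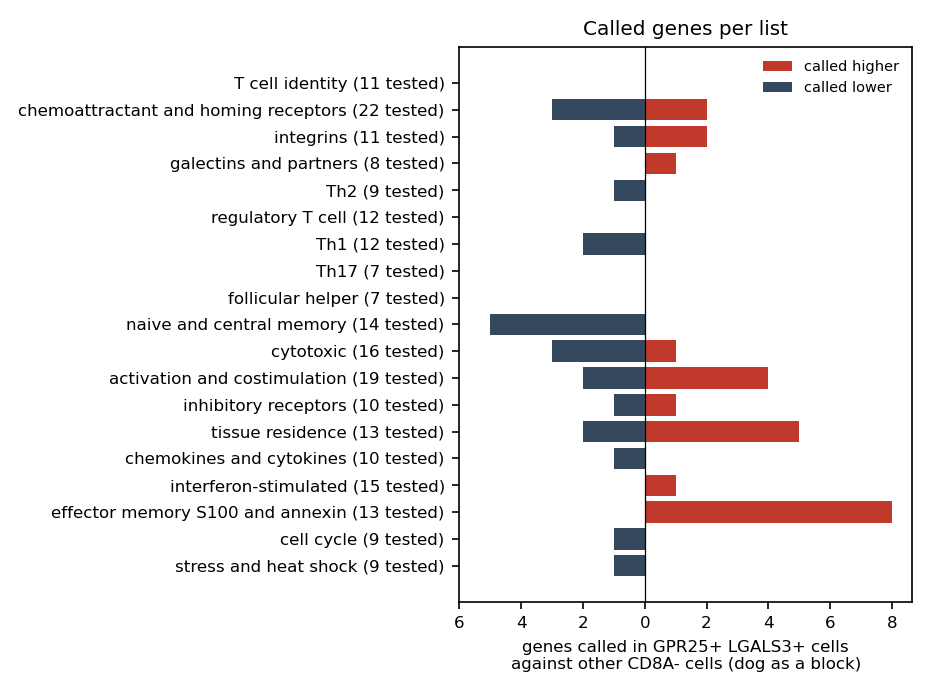
Number of genes per list called higher (right) or lower (left) in GPR25+ LGALS3+ cells than in other CD8A- cells, edgeR with the dog as a block, with the number tested in brackets. The S100 and annexin list has 8 higher and 0 lower, and the naive and central memory list 0 higher and 5 lower. None of these genes was called against LGALS3+ cells without GPR25, GATA3 and FOXP3.

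The set was also held against cells with only 1 of its selecting genes. Against 2680 CD8A- cells with LGALS3 but without GPR25, GATA3 and FOXP3, 40 of 7242 genes passed with the dog as a block (0.552%), 21 higher (0.29%) and 19 lower (0.262%). Without the block edgeR called 0 genes. Against 1202 CD8A- cells with GPR25 but without LGALS3, GATA3 and FOXP3, 375 of 6659 genes passed (5.63%), 219 higher (3.29%) and 156 lower (2.34%), and edgeR without the block called 81. Both comparators were added after the data had been seen.

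Against the LGALS3+ cells without GPR25, higher transcripts were those of CCR2 (0.78), CDKN1A (0.72), the nuclear receptor NR4A2 (0.63), ITGB1 (0.59), RGS1 (0.54), the cytoskeletal linker RDX (0.54) and the inhibitors of NF-κB and of mRNA stability TNFAIP3 (0.46) and ZFP36 (0.41). The AP-1 genes JUNB (0.45) and JUND (0.27), the immediate early gene IER2 (0.44), BHLHE40 (0.37) and CXCR4 (0.26) were also higher. ITGB1 stood at 657 ± 153 CPM in the set and at 441 ± 105 CPM in the LGALS3+ cells (SD, n = 4), higher in 4 of 4 dogs. NR4A2 stood at 75.2 ± 17.8 against 49.1 ± 11.6 CPM, and RGS1 at 606 ± 158 against 414 ± 104 CPM.

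Lower against the same cells were CCR9 (-3.78), FUT7, the fucosyltransferase that completes selectin ligands (-2.10), IL12RB2 (-1.61) and the cannabinoid-related receptor GPR55 (-1.31). KLRK1 (-1.10), CMA1 (-0.86), the cyclin CCND2 (-0.78) and the granzyme GZMK (-0.67) were lower too. CCR9 stood at 5.83 ± 6.47 CPM in the set, at 80.0 ± 51.7 CPM in LGALS3+ cells without GPR25 and at 7.16 ± 5.69 CPM in GPR25+ cells without LGALS3 (SD, n = 4). Both sets with GPR25 were thus low in CCR9 and the set without it was not. GZMK was lower in 3 of 4 dogs, with 15.4, 47.3, 83.7 and 164 CPM in the set.

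Several genes lay between or beside the sets selected on 1 gene. RBP4 had 259 ± 85.2 CPM in GPR25+ LGALS3+ cells, 222 ± 72.9 CPM in LGALS3+ cells without GPR25 and 52.3 ± 45.3 CPM in GPR25+ cells without LGALS3. FGL2 had 444 ± 46.1, 398 ± 52.0 and 220 ± 80.6 CPM in the same order. CCR7 had 64.7 ± 40.5, 65.8 ± 5.95 and 202 ± 34.2 CPM. In these 3 genes the set resembled the LGALS3+ cells and stood apart from the GPR25+ cells, and in CCR9 the reverse.

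The second comparison asked how GPR25+ LGALS3+ cells differed from 2899 GATA3+ LGALS3+ CD8A- cells, which share LGALS3 and carry the Th2 factor. The set had more CD4 and less CCR10, FUT7, CCR4 and CCR9. Of the genes that led the first comparison, RBP4 stood at 259 ± 85.2 against 248 ± 77.3 CPM, FGL2 at 444 ± 46.1 against 412 ± 67.3 CPM and ITGB1 at 657 ± 153 against 576 ± 99.3 CPM (SD, n = 4). None of the 3 was called, with blocked log2 differences of 0.07 ± 0.0839, 0.13 ± 0.0688 and 0.21 ± 0.0663 (SE) and adjusted p-values of 0.905, 0.659 and 0.146. The same 438 cells entered this and all other comparisons, so the comparisons are not independent of each other. Without the block, edgeR called 3 of 7643 genes (0.0393%), 1 higher (0.0131%) and 2 lower (0.0262%), with 397 at an unadjusted p under 0.05 (5.19%), and DESeq2 called 10 (0.131%). With the dog as a block 68 passed (0.89%), 29 higher (0.379%) and 39 lower (0.51%), and 37 without dog 1 and 40 without dog 3. All 4 sums of the set lay above those of the GATA3+ LGALS3+ cells for 1.44% of the genes tested and below them for 2.53%.

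CD4 was the 1 gene higher without the block, at 234, 361, 251 and 306 CPM, against 185 ± 12.9 CPM in GATA3+ LGALS3+ cells (SD, n = 4). The log2 fold change was 0.65 ± 0.110 (adjusted p = 0.0494), without overlap. A CD4 UMI was found in 53.7% ± 4.03 of the set and in 38.7% ± 3.27 of the GATA3+ LGALS3+ cells. FUT7 was lower at 4.57 ± 2.19 against 26.7 ± 6.44 CPM (log2 fold change -2.78 ± 0.449, adjusted p = 0.0393). CCR10, a skin homing receptor for CCL27, had 3 UMIs in the set, and its level in GATA3+ LGALS3+ cells was 9.98 times as high (95% counting interval 3.38 to 48.7, adjusted p = 0.0393). Leaving out any 1 dog brought the 3 calls to 0 in this unblocked fit.

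With the dog as a block, the Th1 factor TBX21 was higher (0.99 ± 0.227 on the log2 scale, 33.1 ± 11.7 against 16.7 ± 6.60 CPM), as was CXCR3, the receptor for CXCL10 (0.64 ± 0.155, 80.8 ± 15.9 against 49.3 ± 15.6 CPM). ITGA4, the α4 chain that pairs with β1 or β7, was higher by 0.56 ± 0.116 at 115 ± 24.7 against 77.5 ± 9.90 CPM. These 3 were higher in 4 of 4 dogs and called only with the block. The other genes named by the rule on size were PRUNE2 (0.90), RCAN2, a calcineurin regulator (0.85), GIMAP8 (0.52) and TNFAIP3 (0.47).

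On the lower side with the block were CCR9 (-3.14), CNTNAP1 (-3.27), CRLF2, the receptor chain for TSLP (-1.93), CEP43 (-1.73), APPL2 (-1.71) and CCDC3 (-1.71), in addition to FUT7 and CCR10. CCR4, a receptor of skin-homing and Th2 cells, stood at 27.7, 22.4, 26.0 and 12.4 CPM in the set, against 46.1 ± 2.85 CPM (-1.17, without overlap). Of the S100 and annexin list, 4 of 13 were lower and 0 higher, against 0.51% lower and 0.379% higher over all genes. The median of the list was -0.14, against 0.0051 over all genes. LGALS1 (-0.34), ANXA2 (-0.34), AHNAK (-0.32) and CRIP1 (-0.23) were those 4, all of which were higher in the set than in all other CD8A- cells. Of 12 tissue residence genes RGS1 was higher (0.46), and of 18 homing receptors CXCR3 and CXCR4 (0.30) were higher and CCR4, CCR9 and CCR10 lower.

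Of the remaining lists in this comparison with a call, integrins had ITGA4 higher and ITGA2 lower (-1.35) among 9, naive and central memory genes had CD27 higher (0.39) among 13, and Th1 genes had IL12RB2 lower beside the 2 higher ones among 11. CCR4 was also the only call among 6 Th2 and 9 regulatory genes, and LGALS1 among 7 galectins and partners, all lower. Cytotoxic genes had the chymase CMA1 lower (-1.10) among 11, and cell cycle genes had STMN1 lower (-0.35) among 5. No gene of the interferon, activation, inhibitory receptor, cytokine, stress, Th17 or follicular lists passed. With the block 0.379% of all genes tested were higher and 0.51% lower.

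**Figure D4:**
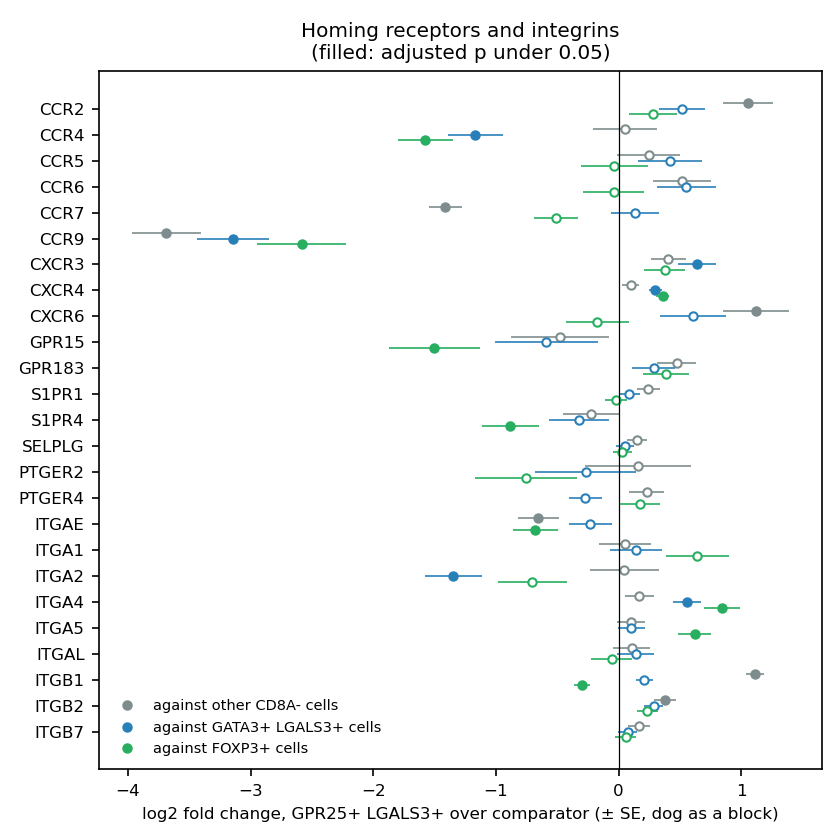
Log2 fold change ± SE of homing receptors and integrins in GPR25+ LGALS3+ cells over other CD8A- cells (grey), GATA3+ LGALS3+ cells (blue) and FOXP3+ cells (green), edgeR with the dog as a block, filled where the adjusted p is under 0.05. CCR9 lies below 0 against all 3 comparators, and ITGB1 lies above 0 against other CD8A- cells (1.11) and below it against FOXP3+ cells (-0.30).

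The third comparison was with 1160 FOXP3+ CD8A- cells, in which LGALS3 is also found. GPR25+ LGALS3+ cells had more IL7R, TCF7, CD40LG, BHLHE40 and FGL2, and less of the regulatory genes CTLA4, IL2RA, IKZF2 and TNFRSF18. edgeR without the block called 118 of 6672 genes (1.77%), 35 higher (0.525%) and 83 lower (1.24%), with 906 at an unadjusted p under 0.05 (13.6%), and DESeq2 called 112 (1.68%). The 118 became 31 without dog 2, 51 without dog 4, 70 without dog 3 and 10 in cells of 3000 to 8000 UMIs. With the dog as a block 484 passed (7.25%), 194 higher (2.91%) and 290 lower (4.35%), and 273 without dog 2. All 4 sums lay above those of FOXP3+ cells for 3.61% of the genes tested and below them for 4.44%. Calls in this comparison are from the unblocked fit unless the block is named.

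BHLHE40 stood at 354, 298, 243 and 384 CPM in the set, against 110 ± 21.7 CPM in FOXP3+ cells, higher by 1.54 ± 0.147 on the log2 scale (adjusted p = 1.96e-05). FGL2 differed by 1.22 ± 0.118 (444 ± 46.1 against 190 ± 31.3 CPM), and TRAT1, an adaptor that stabilises the T cell receptor, by 1.18 ± 0.164 (186 ± 42.4 against 79.1 ± 7.55 CPM). None of these overlapped. The other higher genes named by the rule were the zinc finger gene ZNF462 (1.56), ARMC9 (1.38) and the RAS effector RASSF2 (1.28). IL7R stood at 909 ± 161 against 441 ± 121 CPM, TCF7 at 219 ± 62.2 against 110 ± 13.6 CPM and the helper ligand CD40LG at 92.0 ± 19.6 against 48.2 ± 7.66 CPM.

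Of 10 regulatory genes tested, 5 were lower and 0 higher, against 1.24% lower and 0.525% higher over all genes. The median log2 fold change of the list was -1.33, against 0.0101 over all genes. With the block 8 were lower, against 4.35% of all genes. CTLA4, an inhibitory receptor, stood at 141 ± 35.2 against 298 ± 47.5 CPM, and IKZF2, the factor Helios, at 22.0 ± 11.03 against 123 ± 30.3 CPM. The others were the IL-2 receptor chain IL2RA, TNFRSF18 and CCR4. The comparator was chosen on FOXP3, a gene of the same programme, so the counts of this list describe the comparator as much as the set.

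Among the lower genes named by the rule, SPC24 (-3.81) and CENPF (-3.56), both kinetochore genes, rested on 4 and 7 UMIs in the set, and CNTNAP1 (-3.17) and CDH23 (-3.06) on 5 each. For CCR10 the level in FOXP3+ cells was 24.7 times that of the set (95% counting interval 8.36 to 121) and for the keratin gene KRT27 38.0 times (6.70 to 1513, from 1 UMI in the set). In the S100 and annexin list ANXA2, CAPG, CRIP1 and LGALS1 were lower among 12, in the homing list CCR4 and CCR10 among 18, and STMN1 among 5 cell cycle genes. The integrin chains ITGA4 and ITGA5 were higher among 9. Members of other lists were called too, among them RBPJ, CD96, LTB and FOS higher and BST2, SRGN and IL2RB lower. Of all genes tested 0.525% were higher and 1.24% lower.

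Within the set, levels were set side by side in cells with few and many GPR25 UMIs. The 115 cells with 5 or more GPR25 UMIs had BHLHE40 at 416 ± 92.4 CPM, against 283 ± 106 CPM in the 129 cells with 1 UMI (SD, n = 4). ITGB1 stood at 594 ± 113 and 607 ± 195 CPM, LGALS3 at 447 ± 38.1 and 471 ± 47.1 CPM and KLRG1 at 74.0 ± 55.6 and 74.5 ± 60.6 CPM. None of these differences was tested.

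Cells of the set were also divided by whether they had a CD4 UMI. ITGB1 stood at 618 ± 156 CPM in cells with CD4 and 712 ± 167 CPM in those without, and ANXA1 at 493 ± 32.0 and 489 ± 16.4 CPM. CXCR3 was at 92.7 ± 24.9 and 64.1 ± 4.99 CPM, and CCR4 at 10.2 ± 4.78 and 37.2 ± 11.9 CPM. CCR4 thus stood lower in cells with CD4 in the means, from 36 UMIs in all, without a test.

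The receptors were not used to choose the cells. At least 1 productive rearrangement was recovered from 82.0% ± 4.39 of the set and 81.6% ± 1.69 of other CD8A- cells (SD, n = 4). A second TRB rearrangement, which can mark a droplet with a pair of cells, was found in 5.30% ± 2.004 of those with a receptor in the set and in 2.86% ± 0.521 of those in the other cells. By dog the shares were 5.56%, 7.32%, 5.80% and 2.53% against 3.37%, 3.14%, 2.75% and 2.18%. They were thus higher in the set within each dog, and the difference was not tested. Leaving out all cells with a second TRB gave 253 calls against other CD8A- cells with the block, in place of 236.

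A clone was taken as all cells of a dog with the same V and J genes and junction nucleotides in every TRA and TRB found, and as expanded with 2 or more cells. Of the set, 1 of 39, 8 of 56, 6 of 51 and 34 of 110 cells with both chains lay in expanded clones, or 2.56%, 14.3%, 11.8% and 30.9%. In other CD8A- cells the shares were 4.90%, 27.9%, 30.3% and 47.0%. The set was lower in 4 of 4 dogs, by 12.6 percentage points on average (SD of the differences 7.16), while dogs ranked alike at the ends, with dog 1 lowest and dog 4 highest in both. The exact two-sided sign-flip permutation test gave p = 0.125 (0.375 after Benjamini-Hochberg adjustment over 3 such tests). With 4 dogs 0.125 is the smallest p of this test, which therefore could not reach 0.05. An exact permutation test without pairing, whose smallest possible p is 0.0286, gave p = 0.314.

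The mean expanded share was 10.0% ± 7.10 in GPR25+ cells without LGALS3, 14.9% ± 11.8 in the set, 17.6% ± 9.65 in FOXP3+ cells, 33.7% ± 11.8 in GATA3+ LGALS3+ cells and 39.8% ± 16.4 in LGALS3+ cells without GPR25 (SD, n = 4). The set stood below the LGALS3+ cells without GPR25 in every dog, where those had 16.2%, 42.2%, 47.4% and 53.2%. The set overlapped its neighbours in this order, the GPR25+ cells without LGALS3 and the FOXP3+ cells, in range across dogs. FOXP3+ cells were below GATA3+ LGALS3+ cells in each of the 4 dogs, and the order was not tested.

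**Figure D5:**
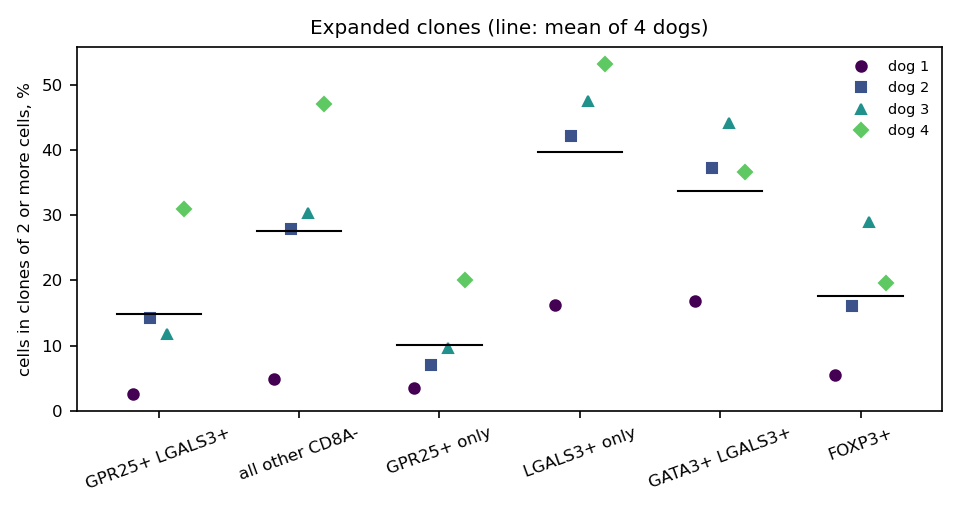
Percent of cells with both receptor chains that lie in clones of 2 or more cells, 1 point per dog and a line at the mean of 4 dogs, for GPR25+ LGALS3+ cells and 5 other sets of CD8A- cells. The set lies between 2.56% (dog 1) and 30.9% (dog 4), and the GPR25+ cells without LGALS3 lie below it in dogs 2 to 4.

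The 256 cells of the set with both chains fell into 248 clonotypes. Of these, 41 held 2 or more cells of the dog, counted over all of its cells, and the largest held 79. In 6 clonotypes, 5 of them in dog 4, 2 or more cells belonged to the set. The junctions of all 6 are shown because they are the receptors that the set held more than once, 5' to 3', with capitals at the bases outside the start and the end that most junctions of the same V or J gene share.
Clone 1 (dog 4), TRBV26 TRBJ2-1: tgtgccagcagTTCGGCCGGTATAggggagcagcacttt
Clone 1 (dog 4), TRAV28 TRAJ20: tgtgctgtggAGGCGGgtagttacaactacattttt
Clone 2 (dog 4), TRBV1 TRBJ2-3: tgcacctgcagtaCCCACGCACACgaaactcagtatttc
Clone 2 (dog 4), TRAV43-4 TRAJ34: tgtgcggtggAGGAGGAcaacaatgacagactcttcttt
Clone 3 (dog 4), TRBV18 TRBJ1-5: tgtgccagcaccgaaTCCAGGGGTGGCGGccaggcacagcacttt
Clone 3 (dog 4), TRAV9-10 TRAJ27: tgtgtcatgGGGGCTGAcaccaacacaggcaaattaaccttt
Clone 4 (dog 2), TRBV16 TRBJ2-6: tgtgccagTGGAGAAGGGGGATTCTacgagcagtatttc
Clone 4 (dog 2), TRAV9-9 TRAJ42: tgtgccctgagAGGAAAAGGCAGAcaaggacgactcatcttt
Clone 5 (dog 4), TRBV5-2 TRBJ2-2: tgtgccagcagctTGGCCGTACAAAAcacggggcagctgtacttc
Clone 5 (dog 4), TRAV12 TRAJ34: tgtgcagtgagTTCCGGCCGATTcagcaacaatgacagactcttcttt
Clone 6 (dog 4), TRBV7 TRBJ2-6: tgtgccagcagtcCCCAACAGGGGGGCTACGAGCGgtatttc
Clone 6 (dog 4), TRAV9-6 TRAJ16: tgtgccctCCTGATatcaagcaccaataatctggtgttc

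Clone 1 had 7 cells, of which 4 belonged to the set, 2 were GATA3+ LGALS3+ cells and 1 had none of the selecting genes. All 7 had a CD4 UMI, 6 had LGALS3 and 3 had KLRG1. Clone 2 had 4 cells, all with GPR25 and LGALS3, of which 2 belonged to the set and the other 2 were FOXP3+. Clone 3 had 3 cells, all with GPR25, of which 2 belonged to the set. Clones 4, 5 and 6 had 2 cells each, all in the set. The 6 clones shared no V gene and no junction, and of the J genes TRAJ34 occurred in clones 2 and 5 and TRBJ2-6 in clones 4 and 6.

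For each cell in an expanded clone, the share of its clone mates that belonged to the set was taken and averaged over cells. For cells of the set it was 0%, 25.0%, 0% and 22.5% in dogs 1 to 4, from 1, 8, 6 and 34 cells with mates. Mates of other CD8A- cells were in the set in 0.606%, 0.585%, 0.609% and 1.61%. The means were 11.9% ± 13.8 and 0.853% ± 0.506 (SD, n = 4), higher in 2 of 4 dogs, with an exact two-sided sign-flip permutation p of 0.5 (0.75 adjusted over 3 tests). The value thus rested on dogs 2 and 4. Taken over all cells with mates, most of them from dog 4, 19.7% of the mates were in the set, 17.0% were GATA3+ LGALS3+ cells, 18.1% other GATA3+ cells and 16.6% cells with none of the selecting genes. Of the others, 11.9% were LGALS3+ cells without GPR25, 11.6% GPR25+ cells without LGALS3, 3.23% FOXP3+ cells and 1.83% cells with CD8A. In the same order these sets made up 1.38%, 9.15%, 15.0%, 33.3%, 8.20%, 3.49%, 4.00% and 25.5% of all cells with both chains. These last shares pool the cells of all dogs and are not weighted to dog 4, where the set was largest. They are therefore no matched base rate for the mates.

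Usage of V and J genes did not set the cells apart at this depth. Of 91 genes tested, edgeR called 0, DESeq2 called 0, and 4 had an unadjusted p under 0.05 (4.4%). These were TRAV28 (4.55% ± 2.32 of cells with a TRA in the set against 2.17% ± 0.327) and TRBJ1-5 (5.03% ± 2.46 of cells with a TRB against 2.10% ± 0.780) with higher means, and TRAV43-1 (13.0% ± 5.30 against 18.5% ± 1.46) and TRBJ1-2 (8.21% ± 3.12 against 11.5% ± 0.484) with lower ones. All had an adjusted p of 0.81. The set had 295 cells with a TRA and 324 with a TRB. Among 300 TRA and 325 TRB nucleotide junctions of the set, 1 of each occurred in 2 dogs.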

How the data were processed

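Per the labels and the methods of the study, TCRαβ+ T cells of 4 dogs were sequenced with a 10x 5' kit, and the deposited counts are UMI counts per gene and cell that the authors made with Cell Ranger 5.0.1 on CanFam 3.1, with no normalization. Each matrix holds 20257 genes, of which 4453 have an identifier only. Names for all matrices came from the gene list of dog 2, since that of dog 1 has 27980 lines (across genes, the totals of dog 1 and of every other dog correlated at 0.989 or more on a log scale). V(D)J rearrangements were used as deposited by the authors.

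Barcodes were kept between 500 and 20000 UMIs if 13 mitochondrial genes gave no more than 10% of these. No doublet caller was run, and cells with a second TRB were left out as an alternative. The members and the gene lists were chosen with earlier results of these data known, and the members by the counts of 5 genes. Tests of those genes and of the proposed markers (7 genes in all) are therefore not reported.

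Counts were summed per dog and set and tested with edgeR 4.0.16 (quasi-likelihood, TMM, filterByExpr, limma 3.58.1, R 4.3.3) with Benjamini-Hochberg adjustment over all genes tested, and with DESeq2 1.42.0 as an alternative. The fit without a block was the planned one. Both sets come from the same animals: over 2952 abundant genes, deviations of the 2 sums of a dog from their group means correlated at 0.473, 0.391, 0.600 and 0.579 against other CD8A- cells, and sums of different dogs at 0.00669 at most, so the fit with the dog as a block is printed beside it. Named genes are the 12 highest and 10 lowest fold changes against other CD8A- cells, 8 and 8 against GATA3+ LGALS3+ cells and 6 and 6 against FOXP3+ cells, among genes with a symbol, an adjusted p under 0.05, the same direction in 4 dogs and a mean of at least 10 CPM in the higher set, without receptor segments, mitochondrial and ribosomal genes. For the first 2 comparisons the rule was applied to the blocked fit, a choice made after values were seen. Other genes named are members of the lists or were chosen after their values were seen.

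In simulated counts for the first comparison, run on 9896 genes, the blocked fit recovered 51.5% of 2-fold and 81.6% of 4-fold changes and called 26 of 9699 unchanged genes. The fit without the block recovered 48.5% and 79.6% and called 9 of the 9699, so the blocked fit gave more false calls in these simulated counts. They were drawn without any difference between dogs, unlike the data. The simulation therefore cannot show which fit recovers more or errs less in the data. Single shares were compared by exact permutation. Python 3.11.15, scipy 1.17.1 and matplotlib 3.10.9 were used. Some genes that met these rules are not reported here, though they remain in the counts. Chromosome positions and protein sequences were not used here.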

Additional observations from a re-analysis of the deposited data

Results flagged for a closer look

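Of 57 groups of 4 dogs examined, 9 held a dog far from the other 3 by Dixon's criterion, where chance gives about 1 in 20 groups. In GPR25+ LGALS3+ cells, the share of cells with a KLRG1 UMI in dog 4 was 40.5%. In other CD8A- cells of dog 4, 2.52% had a CXCL10 UMI and 1.61% of clone mates belonged to the GPR25+ LGALS3+ set.

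The other 6 were levels in GPR25+ LGALS3+ cells. RGS10 stood at 111 CPM in dog 1, CXCR3 at 104 CPM and ITGA4 at 152 CPM in dog 2. CENPF at 21.6 CPM in dog 1, CDH23 at 12.4 CPM in dog 2 and KRT27 at 1.38 CPM in dog 4 were genes whose UMIs all came from that dog. With 0 UMIs in the other dogs the criterion flags any such gene, and KRT27 rested on 1 UMI.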

How the results depend on the processing

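Against other CD8A- cells the edgeR fit without a block called 0 genes, and 236 with the replicate block, 33 by DESeq2, 2 with no filter on low counts, 1 in cells of 3000 to 8000 UMIs, 1 with at least 2 UMIs of GPR25 and LGALS3, 1 in cells with a CD4 UMI, 6 with a comparator without GATA3 and FOXP3 and 81 against GPR25+ cells without LGALS3. Leaving out 1 dog gave 0 to 2. With the block, the 236 became 122 by DESeq2, 111 with at least 2 UMIs of both genes, 358 with a comparator without GATA3 and FOXP3, 40 against LGALS3+ cells without GPR25 and 375 against GPR25+ cells without LGALS3, and 168 to 219 without 1 dog.

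Against GATA3+ LGALS3+ cells the 3 unblocked calls became 68 with the block, 10 by DESeq2, 18 with no filter, 1 in cells of 3000 to 8000 UMIs, 0 with at least 2 UMIs of both genes, 5 without cells with a second TRB, 0 in cells with a CD4 UMI and 0 without any 1 dog. The 68 blocked calls became 24 by DESeq2, 16 with at least 2 UMIs, 28 in cells with a CD4 UMI, and 37 to 70 without 1 dog (37 without dog 1, 40 without dog 3).

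Against FOXP3+ cells the 118 unblocked calls became 484 with the block, 370 with no filter, 10 in cells of 3000 to 8000 UMIs, 55 with at least 2 UMIs and 31 to 80 without 1 dog (31 without dog 2, 51 without dog 4, 70 without dog 3). The 484 blocked calls became 145 by DESeq2, 171 in cells of 3000 to 8000 UMIs, 195 with at least 2 UMIs, 267 in cells with a CD4 UMI and 273 to 430 without 1 dog (273 without dog 2).

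Requiring 2 UMIs of both genes brought the share of CD8A- cells in the set from 1.78% to 0.606%, and leaving out 1 dog gave 1.35% to 1.998%. The difference in CD4 share ran from -0.968 to 1.93 percentage points without 1 dog, below 0 without dog 2 (-0.968) and dog 4 (-0.253). The difference in expanded share ran from -16.1 to -10.7 and that in clone mates from 6.57 to 14.9 points. V and J usage gave 0 calls throughout, with and without the block. Of the 22 genes the naming rule selected against other CD8A- cells with the block, all lost their call without it, as did 13 of 16 against GATA3+ LGALS3+ cells and 1 of 12 against FOXP3+ cells. Over the alternatives, 212 of 275, 89 of 153 and 95 of 101 values of these genes kept direction and call, the others kept direction only and 0 reversed. For genes selected without the block, 12 of 32 kept the call against GATA3+ LGALS3+ cells and 95 of 115 against FOXP3+ cells. In these counts a DESeq2 value without an adjusted p was taken as kept if its direction held. Settings in which a gene fell below the filter on low counts are not among the values, so the counts can overstate stability. Fewer cells and UMIs enter the stricter settings, and the cause of the other changes was not tested. Depth limits the set most in dog 1, where 3 UMIs equal 9.24 CPM.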
